A study of Mus musculus with 80 samples.

Results

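Freshly sorted hematopoietic stem cells (HSCs) that were rich in the transcripts of cell division were examined in old and young mice. A cell was taken as mitotic where its summed UMIs (unique molecular identifiers, 1 per captured transcript) over 7 genes, Mki67, Top2a, Ube2c, Ccnb2, Birc5, Hmmr and Cenpf, came to at least 10. Only cells with at least 800 detected genes and at most 5% of UMIs from mitochondrial genes were kept, which were 1104 of 1459 barcodes in the young library and 2758 of 3720 in the old. By this rule 144 of 3862 kept fresh HSCs were mitotic, 71 of them young and 73 old, among 8201 kept cells in all 4 single-cell libraries of the study. The name stands for cells rich in mitotic transcripts, not only for cells in M phase, since 48 young and 47 old cells among them also held at least 10 UMIs of 7 S-phase genes. These cells were selected on the measured levels of the 7 genes, so those levels in these cells are given as a description and were not tested.

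The study compared HSCs of young and old C57BL/6 male mice and asked what sets apart old HSCs with low and high surface CD150. Young mice were 2 to 3 months old and old mice 22 to 24 months, no fresh group had received a treatment, and all fresh HSCs were sorted from bone marrow as CD150+ cells that lacked CD34 and CD48, within the LSK gate (lineage-negative, Sca-1+, c-Kit+). Droplet scRNA-seq was done on 1 library of young and 1 of old fresh HSCs, and bulk RNA-seq on 3 libraries each of young HSCs, old HSCs and 4 CD150 gates of equal size (G1 to G4, lowest to highest CD150) on HSCs from 3 old mice. CD150-low (CD150L) and CD150-high (CD150H) old HSCs carrying CD45.2 were also put into lethally irradiated young CD45.1 recipients, and donor cells were profiled in bulk on day 4 (3 libraries each) and as single CD45.2 LSK progeny on day 14 (1 library each). How many mice went into each fresh library is not given in the sources used here, so differences between libraries of a group may be technical in part or in full. With 1 single-cell library per age, age and library cannot be told apart, no test of age was made on the cells, and the intervals below cover counting error only.

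HSCs sit at the top of blood formation and are mostly quiescent, entering the cell cycle rarely in undisturbed marrow and quickly after transplantation. In late G2 and mitosis a cell makes a burst of cyclins, kinases, kinetochore and spindle proteins, and the anaphase-promoting complex (APC/C) then destroys many of them as the chromosomes part. Most of these genes are silent in quiescent cells and are switched on together, through promoter elements known as the cell cycle genes homology region (CHR) and the CCAAT box.

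The promoters of the genes that chose the cells were searched for these elements. Of the 7 genes, 4 had the CHR motif TTTGAA on either strand within 250 bases before the start of a RefSeq transcript (build GRCm38.p6), and 6 had CCAAT on either strand, while the Birc5 window held neither and those of Hmmr and Cenpf held CCAAT alone. Among 32851 such windows of all genes, 16.0% held TTTGAA, 33.8% held CCAAT and 5.55% held both. In 105 windows of 93 matched genes out of the 110 in the mitosis lists described below, the shares were 31.4%, 59.0% and 23.8%. The last 200 bases before the start are shown for the 4 genes with TTTGAA, because these genes carry much of the signal, each on the strand of its gene, with every match of either motif, read on either strand, in capitals, and 1 pair of CCAAT matches on opposite strands overlapping in Ube2c. They lie at chr7:135716380-135716579 (minus strand) for Mki67, chr11:99024190-99024389 (minus) for Top2a, chr2:164769729-164769928 (plus) for Ube2c and chr9:70421555-70421754 (minus) for Ccnb2.
Mki67: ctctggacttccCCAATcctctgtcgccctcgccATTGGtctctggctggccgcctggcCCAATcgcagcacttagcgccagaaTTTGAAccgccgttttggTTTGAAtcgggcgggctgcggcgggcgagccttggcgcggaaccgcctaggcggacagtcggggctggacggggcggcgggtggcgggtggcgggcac
Top2a: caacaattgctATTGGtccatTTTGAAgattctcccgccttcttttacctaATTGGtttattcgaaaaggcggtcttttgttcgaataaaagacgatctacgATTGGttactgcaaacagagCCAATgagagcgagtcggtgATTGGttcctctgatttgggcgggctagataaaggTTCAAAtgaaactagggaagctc
Ube2c: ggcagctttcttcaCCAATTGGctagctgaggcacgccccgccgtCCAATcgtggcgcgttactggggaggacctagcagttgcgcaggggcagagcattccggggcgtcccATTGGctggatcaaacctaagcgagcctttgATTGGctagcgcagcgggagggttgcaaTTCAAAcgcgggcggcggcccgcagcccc
Ccnb2: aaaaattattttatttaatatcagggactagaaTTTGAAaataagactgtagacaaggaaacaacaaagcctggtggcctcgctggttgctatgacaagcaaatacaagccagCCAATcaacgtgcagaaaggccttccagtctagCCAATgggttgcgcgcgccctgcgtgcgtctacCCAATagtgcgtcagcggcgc

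The first TTTGAA of Mki67 began 116 bases before the start and the second 98. In Top2a the motif began 179 and, on the other strand, 23 bases before the start, in Ube2c 29 and in Ccnb2 167. A match of letters is a description of the sequence and says nothing of binding.

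Old and young HSCs differed in how many cells met the rule. In the young library 6.431% of kept cells were mitotic (71 of 1104, exact binomial 95% interval 5.057 to 8.043), and in the old library 2.647% (73 of 2758, 2.08 to 3.317). The difference was 3.784 percentage points (Newcombe interval 2.321 to 5.475), and the young share was 2.43 times the old. Cells at 0 UMIs of the 7 genes made up 64.49% of young and 82.81% of old kept cells. Since deeper cells reach 10 UMIs more easily, all cells were also thinned to 9514 UMIs, the 10th percentile of both libraries together, which left out 91 young and 295 old cells (1 and 2 of them mitotic). At that depth 4.64% of young (3.429 to 6.122) and 1.827% of old cells (1.336 to 2.437) met the rule.

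The cells ran from the minimum to 291 UMIs of the 7 genes. Between 10 and 19 UMIs of the 7 genes there were 23 young and 19 old cells, between 20 and 49 UMIs 18 and 27, between 50 and 99 UMIs 15 and 10, and from 100 UMIs 15 and 17. The median was 41 UMIs in young and 34 in old mitotic cells, and the highest young cell held 229. Near the minimum, 8 young and 8 old cells had 8 or 9 UMIs, just outside, and 6 young and 8 old cells had 10 or 11, just inside.

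**Figure D1:**
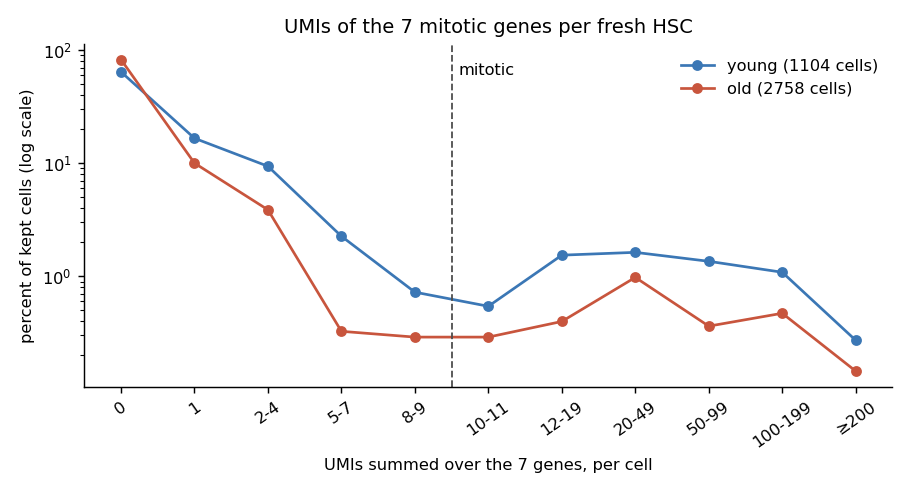
Percent of kept fresh HSCs (vertical axis, log scale) by UMIs summed over the 7 genes (horizontal axis), for the young library (1104 cells) and the old library (2758 cells), with the dashed line at the minimum of 10 UMIs. The old line is above the young only at 0 UMIs and below it in every other bin. The bins differ in width, so heights of different bins are not compared.

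Mitotic cells held more UMIs than the other cells of both libraries, and so did the S-phase class (at least 10 UMIs of the 7 S-phase genes and under 10 of the mitotic genes), at medians of 24151 UMIs in 54 young and 24189 in 35 old cells. That class was 54 of 1104 kept young and 35 of 2758 kept old cells, so a lower share in old was not particular to mitotic cells. The median of mitotic cells was 27024 UMIs and 5118 genes in young and 24862 UMIs and 5036 genes in old, against 13916 and 13172 UMIs in the other cells, which are the 979 young and 2650 old cells below 10 UMIs for both the mitotic and the S-phase genes. All 71 young mitotic cells together held 1856414 UMIs and all 73 old ones 1902187, so both sums have nearly the same depth. The median share of mitochondrial UMIs was 2.473% and 2.158%. A doublet caller marked 12 young and 5 old cells, none of them mitotic (0 of 71 and 0 of 73). The young and old libraries shared 2 barcodes, 0 of them among mitotic cells.

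The 7 genes were present in both ages, given as CPM, the UMIs of a gene scaled to the total of the summed cells. Gene positions are those of GENCODE on mm10. Ki-67, the protein of Mki67 (chr7:135689784-135716361), coats mitotic chromosomes, and Mki67 was at 485.3 CPM in young and 439.5 CPM in old mitotic cells. Top2a (chr11:98992943-99024189) encodes the topoisomerase that untangles sister chromatids and was at 713.2 and 644 CPM. These 2 genes were the ones at a lower level in old than in young cells. The genes at a higher level in old were Ube2c (chr2:164769898-164778822), the ubiquitin-conjugating enzyme of the APC/C, at 222.5 and 342.8 CPM, and Ccnb2 (chr9:70407692-70421547), a mitotic cyclin, at 192.8 and 241.8 CPM. Birc5 (chr11:117849251-117855743), which encodes the chromosomal passenger survivin, was at 279.6 and 323.8 CPM, and Hmmr (chr11:40701395-40733422), which encodes a spindle protein, at 140.1 and 167.7 CPM. Cenpf (chr1:189640606-189688086), a kinetochore gene, was at 256.9 CPM in young and 316.5 CPM in old. All 7 folds, old over young, lay between 0.903 and 1.54.

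The rest of the mitotic programme lay within 2-fold between the ages, per UMI. Cells of both ages were chosen by the same minimum of mitotic transcripts, so similar levels may be set by that choice. The values are given as a description, and nothing is read from the likeness. A set of 6 hand-written lists were read, without the 7 genes above, and together they hold 110 genes. A gene was compared where it reached 10 CPM in either age, and it counted as past the threshold at a CPM ratio beyond 2-fold. Of 8234 genes compared between old and young mitotic cells, 161 were past 2-fold higher in old (1.96%) and 119 past 2-fold lower (1.45%). Of the 110 mitosis genes, all of them compared, 0 were past 2-fold in either direction, 73 had a ratio above 1, and their median log2 ratio was 0.112 (1.08-fold), against -0.017 over all genes compared. Summed, these genes made 24460 CPM in young (Poisson 95% interval 24240 to 24690) and 25740 CPM in old mitotic cells (25510 to 25970).

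Cyclins and kinases of mitotic entry had a median ratio of 1.16-fold over 18 genes. Cks2 and Cks1b, small partners of the cyclin-dependent kinases, were at 417.5 and 252.6 CPM in young and 499.4 and 246 CPM in old. Cdk1, the kinase that starts mitosis, had 312 UMIs in young and 383 in old (1.20-fold, counting interval 1.03 to 1.40), and Ccna2, a cyclin of S phase and G2, 176 and 212 UMIs. Plk1, a mitotic kinase named after its values were seen, came nearest to the threshold with 65 and 132 UMIs (1.98-fold, 1.46 to 2.71).

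The 21 genes of the kinetochore and spindle checkpoint had a median of 1.06-fold. Cenpa, the histone H3 variant that marks centromeres, had 338 UMIs in young and 599 in old mitotic cells (182.1 and 314.9 CPM, 1.73-fold, 1.51 to 1.98). Spc24, a subunit of the kinetochore complex that binds microtubules, was at 257.5 and 253.4 CPM. Spindle motors and microtubule factors had a median of 1.09-fold over 23 genes, with Stmn1, a regulator of microtubule stability, at 2564 and 2958 CPM and the tubulin gene Tubb5 at 1512 and 1608 CPM. The chromosomal passenger and cytokinesis genes had 1.13-fold over 13, with Cdca8 (borealin) at 279.6 and 308.6 CPM and Prc1, which bundles the microtubules of the central spindle, at 257.5 and 314.9 CPM.

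APC/C subunits and mitotic exit genes had a median of 1.11-fold over 20, with the subunit Anapc5 at 186.4 and 217.1 CPM. Condensin and chromosome proteins had 0.995-fold over 16, with the chromatin protein gene Hmgb2 at 2783 and 2528 CPM and H2az1, a histone variant gene, at 2734 and 2997 CPM. The 30 genes of DNA replication were all compared and 0 were past 2-fold, with a median of 0.922-fold. Pcna, the sliding clamp of the polymerases, was at 351.8 CPM in young and 301.8 CPM in old mitotic cells, and the list summed to 3983 and 3704 CPM.

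**Figure D2:**
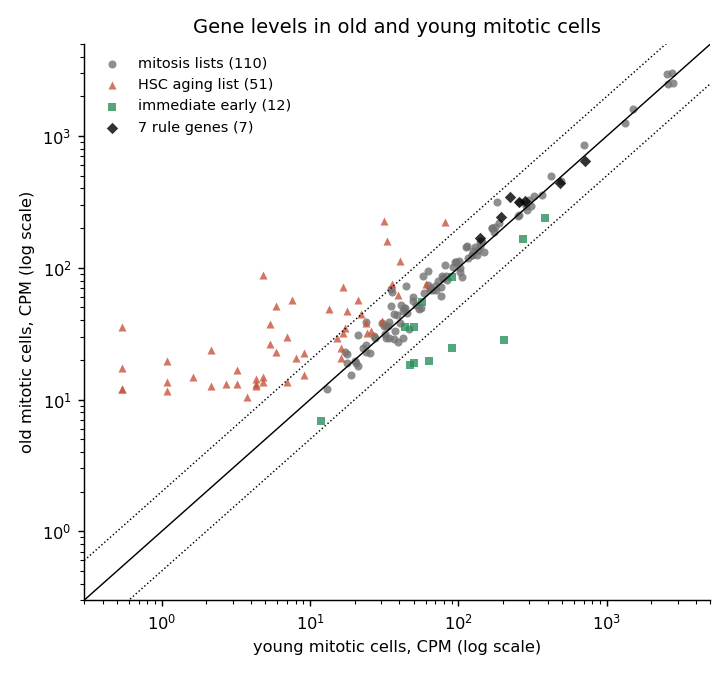
Level of each gene in CPM summed over young mitotic cells (horizontal axis, log scale) and over old mitotic cells (vertical axis, log scale), with the line of equal level and dotted lines at 2-fold. Grey points are the 110 mitosis genes, black diamonds the 7 genes of the rule, red triangles the 51 compared HSC aging genes and green squares the 12 compared immediate early genes. The 110 mitosis genes lie between the dotted lines, 39 aging genes lie above them and 5 immediate early genes below.

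Against the other cells of their own library, the mitotic cells differed by how they were chosen, and nothing is read from the size of that difference. In young, 554 of 8639 genes (6.41%) were past 2-fold higher in mitotic cells, and in old 669 of 8564 (7.81%). Of the 110 mitosis genes 89 in young and 94 in old were among them, and all 30 replication genes in both. Stem cell genes made a smaller share of the UMIs in mitotic and in S-phase class cells than in other cells. Mitotic cells held more UMIs, with medians of 27024 in young and 24862 in old against 13916 and 13172 in other cells. A lower CPM there does not show fewer transcripts per cell, which was not tested. The 20 genes of the HSC list, which mark HSCs and early progenitors, summed to 1554 CPM in young mitotic and 2926 CPM in young other cells, and to 1516 and 2854 CPM in old, and the S-phase class had 1905 CPM in young and 1553 CPM in old. Past 2-fold lower in mitotic than in other cells were 7 of 20 genes in young and 5 in old, where 6.05% and 5.62% of all genes compared were, and 0 were past 2-fold higher. Of the HSC aging list described below, 17 of 36 compared genes in young and 26 of 63 in old were past 2-fold lower in mitotic cells, and 1 and 0 higher. In both lists a gene that reached 10 CPM in other cells alone could only count as lower. Sult1a1 in young was such a gene (5.925 CPM in mitotic and 58.72 CPM in other cells). The counts were not split by this, and nothing is read from them.

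Within the class, late mitotic genes were at their highest level in the cells with the most UMIs of the 7 genes. From 10 to 19 UMIs, Cdc20, the APC/C activator of anaphase, was at 24.93 CPM in young and 20.41 CPM in old cells, and from 100 UMIs at 268.9 and 311.7 CPM. The cyclin B1 gene Ccnb1 was at 15.34 and 13.61 CPM in the first of these bins and at 163 and 228.8 CPM in the last. Cenpa was at 372.8 CPM in the 15 young and 711.7 CPM in the 17 old cells of the last bin. The bins were made from the genes of the rule, so nothing is read from these differences. The median UMIs of the 7 S-phase genes per cell, from the first bin to the last, were 20, 19.5, 25 and 13 in young and 22, 19, 24 and 10 in old, so the bin from 50 to 99 UMIs was the highest and the last bin the lowest at both ages.

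The genes that did differ between old and young mitotic cells were led by the HSC aging list, a list of 100 HSC aging marker genes that the study took from a public dataset. Over the 99 measured genes, summed without any filter, young mitotic cells had 771.4 CPM (731.9 to 812.4) and old mitotic cells 2333 CPM (2265 to 2403). Of these genes 51 reached 10 CPM in either age, and 39 of the 51 were past 2-fold higher in old and 0 lower. Since 30 of the 51 reached 10 CPM in old cells alone, which only genes higher in old could do, the other 21 are the fairer set. All 21 were above a ratio of 1, 11 of them were past 2-fold, and their median log2 ratio was 1.009. The list holds markers of HSC aging, and its genes are no independent evidence of that direction.

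The 10 genes with the highest ratio of old to young mitotic cells, among those with at least 50 UMIs in old, were Mt2, Plscr2, Lbhd2, Sult1a1, Clca3a1, Mt1, Selp, Ncam1, Aspa and Nupr1. The metallothionein genes Mt1 and Mt2 encode metal-binding proteins. Mt1 had 58 UMIs in young and 432 in old mitotic cells (7.27-fold, counting interval 5.52 to 9.73), and Mt2 had 1 and 68 (66.4-fold, 11.5 to 2660). Plscr2, a member of the phospholipid scramblase family, had 9 and 168 UMIs (18.2-fold, 9.37 to 40.5). Selp, the adhesion molecule P-selectin, had 10 and 71 UMIs (6.93-fold, 3.56 to 15.1), and Nupr1, a stress-induced nuclear protein gene, 61 and 304 (4.86-fold, 3.68 to 6.51). Sult1a1, a sulfotransferase gene, had 11 and 97 UMIs, Clca3a1, a family member of chloride channel regulators, 14 and 108, and Aspa, the aspartoacylase gene, 10 and 50. Lbhd2 (6 and 60 UMIs) and Ncam1 (10 and 62), which encodes a neural cell adhesion molecule, are the 2 of the 10 that are not on the aging list. Cavin2, which encodes a caveola protein, had 151 and 422 UMIs (2.73-fold, 2.26 to 3.31) and Aldh1a1, a retinaldehyde dehydrogenase gene, 75 and 216 (2.81-fold, 2.15 to 3.71).

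The same contrast in the other cells is shown side by side, since it comes from different cells of the same 2 libraries. There 8406 genes were compared, 115 were past 2-fold higher in old (1.37%) and 76 lower (0.904%). The summed aging list was at 1234 CPM in young and 4067 CPM in old other cells, so its share of UMIs was lower in mitotic than in other cells at both ages. Since mitotic cells held more UMIs, this does not show fewer transcripts of the list per cell. Of its genes 62 were compared in other cells, 27 of them only through old cells, and of the other 35 genes 25 were past 2-fold higher. In both classes 20 aging genes reached 10 CPM in young cells, of which 11 were past 2-fold higher in mitotic cells, 12 in other cells and 9 in both. Their median log2 ratio was 1.01 in mitotic and 1.24 in other cells, and 14 of the 20 had the larger ratio in other cells. Whether the 2 classes differ in that ratio was not tested, with 1 library per age. Over all genes, 53 of those past 2-fold higher were shared, which is 32.9% of the mitotic and 46.1% of the other cells' genes, and of those lower 20 were shared (16.8% and 26.3%).

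**Figure D3:**
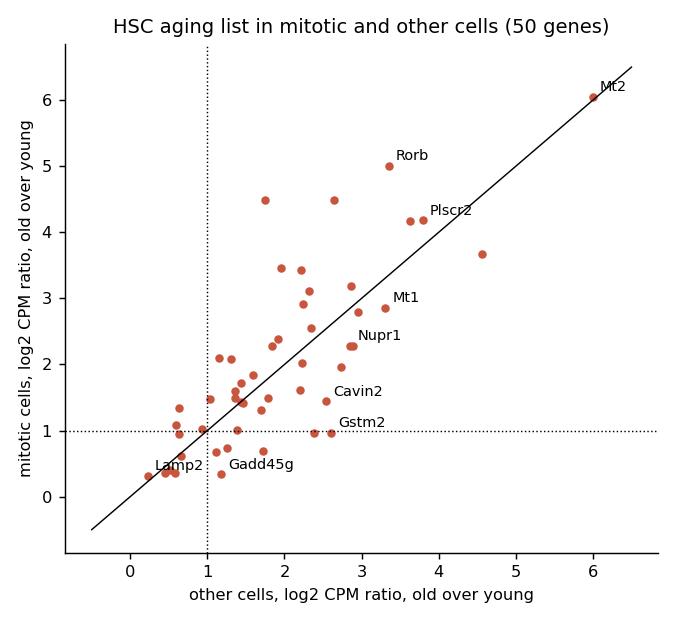
Log2 CPM ratio, old over young, of 50 HSC aging genes in other cells (horizontal axis) and in mitotic cells (vertical axis), with the line of equal ratio and dotted lines at 2-fold. Each point is 1 gene, 30 of the 50 being below 10 CPM in young cells of 1 or both classes, and all 50 lie above 0 on both axes, with Mt2 at the top right (6.05 in mitotic cells).

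At equal depth old mitotic cells held more UMIs of the aging list than young ones, and the ages overlapped. In cells thinned to 9514 UMIs, the median over 70 young mitotic cells was 7 UMIs of the list (lower quartile 4, upper quartile 10) and over 71 old mitotic cells 21 (15 to 29). The medians of other cells were 10 in 889 young and 38 in 2357 old cells. Young mitotic cells ranged from 1 to 27 UMIs and old ones from 8 to 58. HSC genes had a median of 14 UMIs in mitotic cells of both ages and of 27 in other cells of both ages. Thinning gives every cell the same total, so medians of mitotic and other cells compare shares of UMIs, not transcripts per cell.

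**Figure D4:**
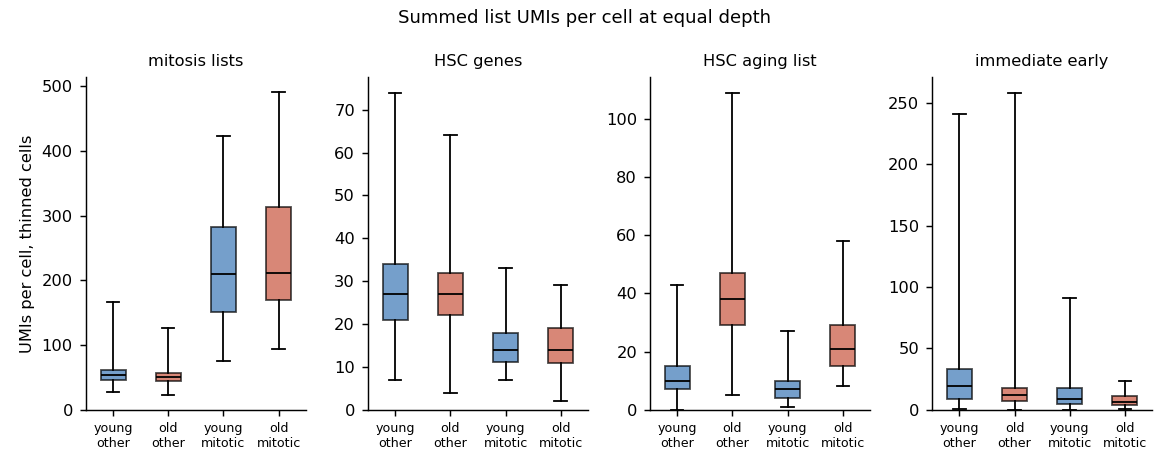
UMIs per cell summed over a gene list, in cells thinned to 9514 UMIs, for the mitosis lists, the HSC list, the HSC aging list and the immediate early list, in young and old other and mitotic cells. Boxes span the quartiles with the median as a line, and whiskers reach the lowest and highest cell. The median of the mitosis lists is 210 UMIs in young and 211 in old mitotic cells, while the median of the aging list is 7 and 21.

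Immediate early genes, which are switched on within minutes by growth factors and by stress, dissociation of tissue included, were lower in old mitotic cells. Of 15 genes 12 were compared, 5 were past 2-fold lower and 0 higher, and the list summed to 1380 CPM (1327 to 1434) in young and 736.5 CPM (698.5 to 776.1) in old. In other cells 5 of 13 were past 2-fold lower, with sums of 2498 and 1445 CPM. Fos, a subunit of the AP-1 transcription factor, had 379 UMIs in young and 54 in old mitotic cells (fold 0.139, 0.103 to 0.185). Its relative Fosb had 167 and 47 UMIs, the zinc finger gene Egr1 117 and 37, and Zfp36, whose protein speeds the decay of mRNA, 93 and 36. How long each marrow was handled before the sort is not known here, and its part in these values was not tested. In the bulk libraries described below, 0 of 15 immediate early genes were called by limma between old and young, and 1 had an unadjusted p under 0.05, as did 19.1% of all genes tested. The list summed to 309.7, 362.3 and 4309 FPKM in young and 373.7, 528.2 and 364.9 FPKM in old libraries, so the third young library stood apart and the first 2 young libraries lay below every old one. Fos was at 4.35, 10.4 and 1140 FPKM in young and 10.4, 12.9 and 3.08 FPKM in old (log2 change -2.25, SE 1.47, adjusted p 0.466). The lower level of old single cells was thus not seen in bulk apart from that library.

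Fos, Fosb, Egr1 and Zfp36 were 4 of the 10 genes with the lowest ratio of old to young, among those with at least 50 UMIs in young. Plac8, a gene of myeloid and lymphoid progenitors, had the lowest, with 158 UMIs in young and 7 in old (fold 0.0432, 0.0171 to 0.0912), and was also lower in other cells (61.95 and 2.867 CPM). Socs2, a feedback inhibitor of cytokine signalling, had 71 and 9 UMIs, and Lgals1, which encodes the lectin galectin-1, 111 and 31. The histone H2A genes Hist1h2an (166 and 60 UMIs) and H2ac18 (97 and 37) are near-identical to other H2A copies, so their counts are uncertain. Nrde2, an RNA-processing gene, had 54 and 18 UMIs.

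Regulators of the G1 to S step were mixed. Of 19 CDK inhibitors, pocket proteins and G1 cyclins 17 were compared, with 2 past 2-fold higher and 0 lower and a median of 1.06-fold. These 2 were Ccnd1, the cyclin D1 gene, with 60 UMIs in young and 143 in old mitotic cells (2.33-fold, 1.71 to 3.20), and Cdkn1a, the CDK inhibitor p21, with 14 and 30 (2.09-fold, 1.08 to 4.27). The partner kinase gene Cdk6 was at 234.3 and 156.1 CPM (fold 0.666), and the inhibitor gene Cdkn2c at 26.93 and 48.89 CPM (1.82-fold, 1.27 to 2.61). Among 13 p53 targets 7 were compared, and those past 2-fold higher were Cdkn1a and Plk2, a stress-responsive kinase gene, with 7 and 24 UMIs (3.35-fold, 1.40 to 9.20). Both were under 10 CPM in young and were compared only through old cells, and of the 4 p53 targets at 10 CPM in both ages 0 were past 2-fold. Apart from Cdk6, these genes were named after their values were seen. The 16 compared genes of homologous recombination and the Fanconi pathway had 0 past 2-fold and a median of 1.09-fold, and the 14 growth and ribosome biogenesis genes 0 and 0.877-fold, with 0 of the 14 above a ratio of 1.

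All 20 genes of the HSC list were compared, and 3 were past 2-fold higher in old mitotic cells and 1 lower, with a median of 1.01-fold. Procr, the surface protein EPCR that marks HSCs, had 42 UMIs in young and 92 in old mitotic cells (2.14-fold, 1.47 to 3.16) and was at 127.4 and 228.6 CPM in other cells. Fgd5 had 14 and 35 UMIs, Hoxb5 10 and 24, and Tek, the receptor TIE2, 33 and 16. These 4 genes were named for passing the threshold, Fgd5 and Hoxb5 having reached 10 CPM in old cells alone and Tek in young cells alone. Kit, the receptor used in the sort, was at 203.1 and 193.5 CPM, Hlf, a transcription factor gene of HSCs, at 193.9 and 177.2 CPM, and Slamf1, which encodes CD150, at 23.16 and 25.23 CPM. Cd48, whose protein was excluded by the sort, had 4 UMIs in young and 1 in old mitotic cells, while Cd34, likewise gated out as protein, had 161 and 133.

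Markers of other blood lineages were read to describe the sort. Each list had at least 1 defining gene at 0 in the mitotic cells of both ages, which does not show a clean sort. Against other cells, 3 of 5 compared erythroid genes were past 2-fold higher in mitotic cells and 1 lower, at each age. Over all genes 6.41% in young and 7.81% in old were higher. The 3 in young were Gata1 (7.51-fold), Aqp1 (2.5-fold) and Epor (2.16-fold), under 10 CPM in other cells, so only able to count as higher. Nkg7, of the T and NK cell list, was 4.46-fold higher in young and 5.34-fold in old. The B cell list summed to 32.32 CPM in young and 37.33 CPM in old mitotic cells, most of it Cd79b, with Cd79a, Ms4a1 and Pax5 at 0. The T and NK cell list summed to 87.27 and 48.37 CPM, most of it Nkg7, with Cd3e and Cd3g at 0. The macrophage list summed to 249.9 and 221.3 CPM, most of it Lyz2, with Adgre1 and Csf1r at 0 in both ages. The complement genes C1qa, C1qb and C1qc, which macrophages express, had 10, 9 and 12 UMIs in young mitotic cells, 7 of each in the highest cell, and Cd5l, another macrophage gene, had 6, while all 4 genes were at 0 in old mitotic cells. The part of such RNA in the results was not tested. In the lymphoid and multipotent progenitor list (124.4 and 103.6 CPM) Cd34 had the most UMIs and Dntt and Il7r were at 0, and in the erythroid list (123.9 and 99.89 CPM) Hbb-bt had the most and Car1 was at 0. Gata1, the erythroid and megakaryocyte transcription factor, had 45 UMIs in young and 10 in old mitotic cells (fold 0.217, 0.0975 to 0.437). At 24.24 and 5.257 CPM it was compared through young cells alone, and of the 3 erythroid genes at 10 CPM in both ages 0 were past 2-fold lower. The neutrophil list summed to 238.6 and 447.4 CPM, with Mpo and Ctsg at 0. Of that sum Prtn3, the proteinase 3 gene, had 213.3 and 428.5 CPM, and it was higher still in other cells (451.7 and 875.7 CPM).

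Megakaryocyte genes, several of which HSCs also express, summed to 439 CPM in young (409.4 to 470.2) and 667.1 CPM in old mitotic cells (630.9 to 704.9), with Gp6 and Mpig6b at 0 in both and Cd9 the gene with the most UMIs. Of 12 genes 9 were compared, and 2, Pf4 and Selp, were past 2-fold higher in old. Selp reached 10 CPM in old cells alone, and of the 8 genes that did so in both ages 1 was past 2-fold higher. Pf4, which encodes platelet factor 4, had 172 and 353 UMIs, but 1 cell held 36.6% of these UMIs in young and 1 cell 41.6% in old. Without the 5 cells of each age richest in this list, Pf4 was at 45.78 and 90.85 CPM and the list at 349.6 and 528.1 CPM, and the mitosis and aging counts were 0 and 39 as before. In other cells Pf4 went the other way, at 97.44 CPM in young and 62.05 CPM in old. Against other cells, 2 of 9 compared megakaryocyte genes were past 2-fold higher in mitotic cells and 1 lower, at each age. Itga2b, an integrin gene of the list, was 2.5-fold higher in young and 2.95-fold in old. The part of megakaryocyte-like cells in the other results was not tested beyond this.

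The bulk libraries did not enter the choice of cells and give 3 libraries per group. The number of mice in each young and old library is not given, so adjusted p-values between these ages may rest on technical spread only. Their values are FPKM (fragments scaled to transcript length and library size), tested by limma-trend on log2(FPKM + 1), and calls needed an adjusted p (Benjamini-Hochberg) under 0.05 together with a change past 2-fold. Here the whole sorted population is read, so fewer mitotic cells and less mitotic RNA per cell cannot be told apart. Of 11279 genes tested between 3 old and 3 young libraries, 195 were called lower in old (1.73%), and 6 of the 7 rule genes were among them. Top2a was at 41.5, 30.9 and 32.2 FPKM in the young libraries and at 16.2, 4.64 and 8.75 FPKM in the old (log2 change -1.86, SE 0.324, adjusted p 0.00613). Mki67 was at 7.95, 7.32 and 5.81 FPKM in young and at 2.89, 0.661 and 2.09 FPKM in old (log2 change -1.56, SE 0.321, adjusted p 0.015). In both genes every old library was below every young one, and the second old library was the lowest.

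Ube2c showed the widest gap, with 67.1, 70.1 and 79.8 FPKM in young and 11.7, 0 and 22.5 FPKM in old (log2 change -3.45, SE 0.836, adjusted p 0.0315), which depends on the pseudocount since 1 old library is listed at 0. Leaving out 1 library gave log2 changes of Ube2c from -4.358 to -2.08. Ccnb2 was at 71.5, 78 and 52.1 FPKM in young and 23, 3.06 and 27.6 FPKM in old (adjusted p 0.034). Birc5 had a log2 change of -2.53 (adjusted p 0.0203) and Hmmr of -1.91 (adjusted p 0.0352). Leaving out 1 library, Birc5 ran from -3.104 to -1.628 and Hmmr from -2.407 to -1.227. Cenpf missed the threshold, with 10.1, 10.4 and 6.63 FPKM in young and 3.08, 1.11 and 6 FPKM in old (log2 change -1.33, SE 0.38, adjusted p 0.0648). For all 7 genes the old libraries lay wholly below the young, as they did for 11.3% of all genes tested.

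The lists told the same of the wider programme. Of 110 mitosis genes 108 were tested, 36 were called lower in old and 0 higher, with a median log2 change of -0.845 against 0.013 over all genes tested. By role, 7 of 18 entry cyclins and kinases were called, 12 of 21 kinetochore and checkpoint genes, 6 of 21 spindle motors and microtubule factors, 6 of 13 passengers and cytokinesis genes, 4 of 16 condensin and chromosome genes and 1 of 20 APC/C and exit genes, which was Cdc20. Of the 108 genes 96 also reached 1 FPKM in old, with 33 called. Outside the mitosis lists, 13 of 28 tested replication genes were called lower and 0 higher, with a median of -0.961. Of the 7 S-phase genes, which are part of that list, 5 were called (median -1.319). Among homologous recombination and Fanconi genes 3 of 16 were called (median -0.76). A lower level in old was thus not particular to the mitosis genes. Cdk1 was at 94.8, 91.5 and 95.2 FPKM in young and 30.2, 11.7 and 33.5 FPKM in old (log2 change -1.99, SE 0.294, adjusted p 0.00248). Cdc20 was at 36.7, 32.6 and 36.7 FPKM in young and 9.63, 4.81 and 12.5 FPKM in old (log2 change -1.95, SE 0.267, adjusted p 0.00147). Young and old did not overlap in either gene.

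Other entry genes called were Aurka, Ccna2, Ccnb1, Cdc25c and Cks2, and other kinetochore and checkpoint genes were Bub1, Cenpe, Cenpm, Cenpn, Mad2l1, Ndc80, Nuf2, Ska1 and Spc24. The spindle motors and microtubule factors called were Ckap2, Ckap2l, Kif11, Kif15, Kif2c and Nusap1, the passengers and cytokinesis genes, beside Aurkb, were Cdca8, Cep55, Ect2, Kif20b and Prc1, and the condensin and chromosome genes were Hmgb2, Lmnb1, Ncapg and Ncaph. The 36 log2 changes ran from -2.44 in Aurkb to -1.01 in Bub1.

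With their values, the called genes included the kinetochore genes Spc25 (log2 change -1.81, adjusted p 0.000511) and Knl1 (-2.25, adjusted p 0.00248), the passenger kinase gene Aurkb (-2.44, adjusted p 0.0178) and the CDK partner Cks1b (-1.30, adjusted p 0.000185). Cenpa, at a higher level per UMI in old than in young mitotic cells, was at 73.6, 66.7 and 60.9 FPKM in young and 21.9, 10.5 and 31.7 FPKM in old bulk libraries (log2 change -1.73, adjusted p 0.0054). So the same gene read higher within mitotic cells and lower in the whole sorted population. The aging list had 88 genes tested and 75 called higher in old (of all 11279 genes tested 217 were, or 1.92%), and of the 59 that also reached 1 FPKM in young 50 were called. Of 8 tested macrophage genes 3 were called lower in old, C1qa (-1.72, adjusted p 0.00964), C1qb (-1.70, adjusted p 0.0164) and C1qc (-1.59, adjusted p 0.0152), and the other 5 were not called. Of these 3 genes C1qb alone also reached 1 FPKM in old. The list summed to 656.7, 671.3 and 669.8 FPKM in young and 601.4, 672 and 633.4 FPKM in old, which overlap. Of 7 tested genes of the lymphoid and multipotent progenitor list 3 were called lower, Cd34 (-1.16, adjusted p 0.000686), Flt3 (-1.26, adjusted p 0.02) and Satb1 (-1.09, adjusted p 0.0433), the last 2 having reached 1 FPKM in young alone. The list summed to 113.9, 138.8 and 139.9 FPKM in young and 62.79, 76.45 and 89.96 FPKM in old. Nkg7 of the T and NK cell list was called lower as well (-1.33, adjusted p 0.000807). The neutrophil list summed to 213.1, 228.7 and 217.2 FPKM in young and 564.9, 705 and 641.2 FPKM in old, with Prtn3 its top gene. Of its 6 tested genes 1 was called higher and 1 lower. The part of such cells in the mitotic values was not tested. The 8 aging genes among the 10 highest ratios of old to young mitotic cells were all called higher, from Sult1a1 (log2 change 1.86) to Mt2 (5.69, adjusted p 2.47e-06). Plk2 (log2 change 2.17, adjusted p 0.0282) and Procr (1.05, adjusted p 0.000511) were called higher too, while Ccnd1 (0.86, adjusted p 0.121) and Cdkn1a (0.31, adjusted p 0.649) were not called. Plk2 was 1 of 11 tested p53 targets to be called, and in the HSC list Procr and Slamf1 were called higher of 20 tested. Gata1 (-1.53, adjusted p 0.0252) and Pf4 (-1.99, adjusted p 7.39e-05) were called lower, and Pf4 was at a higher level in old than in young mitotic cells. Gata1 was the 1 gene called of 10 tested in the erythroid list, whose median log2 change was 0.091. That list summed to 146.6, 202.5 and 192.3 FPKM in young and 1098, 103.2 and 168.3 FPKM in old libraries. The first old library thus stood apart in erythroid RNA, and the part of this in the mitotic values was not tested. Of 10 tested megakaryocyte genes Pf4 was called lower and 3, Plek, Selp and Vwf, higher, with a median of 0.246.

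The count of calls rested on few libraries. The 7 rule genes summed to 309.3, 278.7 and 280.5 FPKM in young libraries and to 93.23, 13 and 94.53 FPKM in old ones, where the second stood apart. Without that second old library 31 mitosis genes and 6 rule genes were still called lower. Without the first young library these counts were 20 and 1, and without the second young library 21 and 1. Without the third young library, which stood apart in immediate early genes, they were 27 and 4. With no filter on low FPKM, 0 mitosis genes and 11 genes in all were called.

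**Figure D5:**
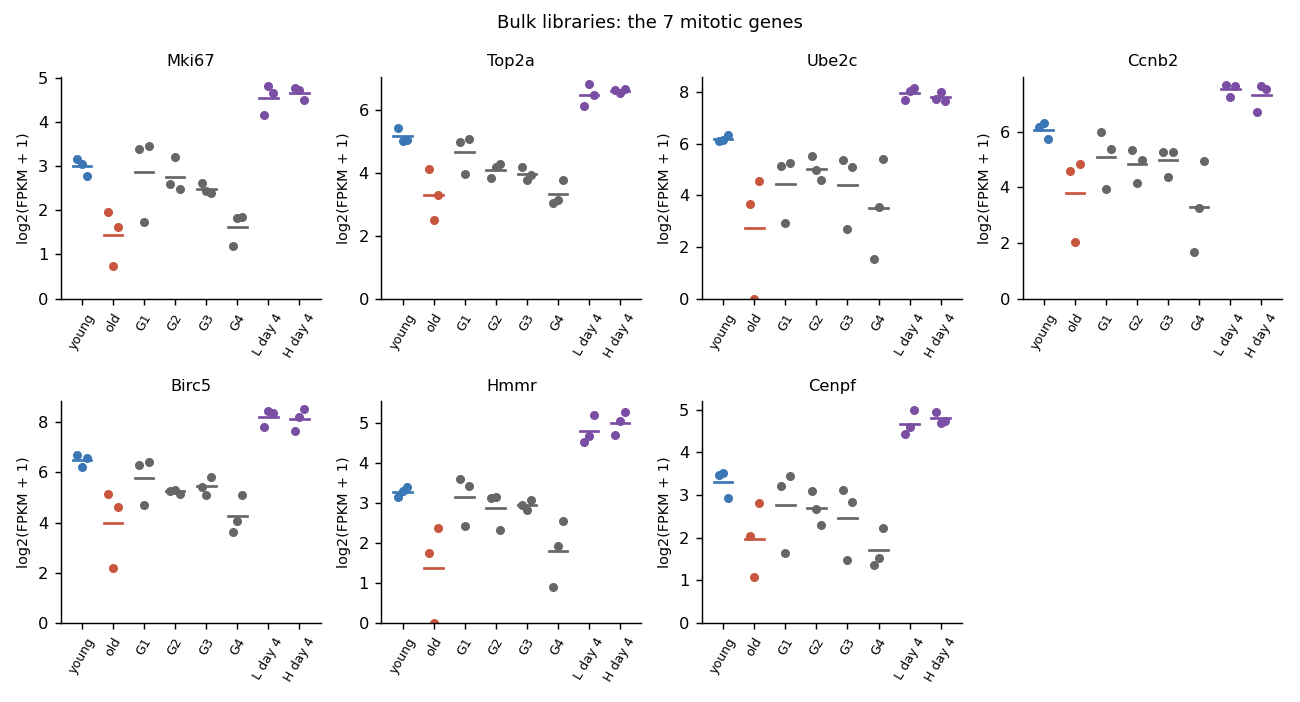
Each of the 7 rule genes in the 24 bulk libraries as log2(FPKM + 1), with 3 libraries (points) and their mean (line) for young HSCs, old HSCs, CD150 gates G1 to G4 on old HSCs, and CD150L and CD150H old HSCs on day 4 after transplantation. Old libraries lie below young ones in all 7 panels, G1 and G4 overlap in every panel except that of Top2a, and all day 4 libraries lie above all fresh ones.

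CD150 level among old HSCs was tested as a linear term over G1 to G4, which come from the same 3 mice. Of 11673 genes 13 fell with CD150 (adjusted p under 0.05, 0.111%), and 0 of the 7 rule genes and 0 of 108 mitosis genes were called by limma. All 7 rule genes had a slope below 0, and 6 had an unadjusted p under 0.05, as did 44 of the 108 mitosis genes, of which 88 had a slope below 0 with a median of -0.181 (log2) per gate. Over all genes tested 11.8% had an unadjusted p under 0.05 and 49.4% a slope below 0. Of 27 tested replication genes 0 were called, 27 had a slope below 0 and 10 an unadjusted p under 0.05. Top2a came nearest, at 30.5, 14.6 and 32.7 FPKM in G1, 13.3, 17.1 and 18.4 FPKM in G2, 17.3, 12.7 and 14.2 FPKM in G3 and 7.24, 7.81 and 12.5 FPKM in G4 (slope -0.42 log2 per gate, SE 0.0919, adjusted p 0.0691). The sums of the 7 genes were 233.9, 69.37 and 224.2 FPKM in G1 and 26.45, 50.28 and 128.6 FPKM in G4 for mouse 1, 2 and 3, so G4 was below G1 within each of the 3 mice, while the gates overlapped across mice because mouse 2 was low in G1. The mitosis lists summed to 6990, 6028 and 8465 FPKM in G1 and 4977, 4943 and 6192 FPKM in G4, lower in 3 of 3 mice too. With mouse as a block the slope still called 0 mitosis genes and 0 rule genes. The lymphoid and multipotent progenitor list, most of it Cd34, was also lower in G4 than in G1 within each mouse. Within G1 it was highest in mouse 2, where the rule genes were lowest. It was at 106.5, 129.9 and 80.1 FPKM in G1 and 69.27, 58.58 and 59.9 FPKM in G4. The T and NK cell list was at 57.1, 98.19 and 157.3 FPKM in G1 and 29.65, 23.04 and 36.25 FPKM in G4. Of its 2 tested genes 1 was called lower. Erythroid sums were 97.34, 152.1 and 194.8 FPKM in G1 and 58.06, 47.62 and 59.72 FPKM in G4. The megakaryocyte list was also lower in G4 in each mouse, while the neutrophil, macrophage and B cell lists were higher. The part of these lists in the mitotic values was not tested. Without the G1 library of mouse 2, 4 mitosis genes and 2 rule genes (Mki67 and Top2a) were called, and without the G2 library of mouse 1, 1 mitosis gene.

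After transplantation the rule genes were above the fresh level in every library. Both day 4 groups were compared with the same 3 fresh old libraries, so the comparisons share their controls. These controls were not split by CD150 level, and their rule genes summed to 93.23, 13 and 94.53 FPKM. The fresh gates summed to 233.9, 69.37 and 224.2 FPKM in G1 and 26.45, 50.28 and 128.6 FPKM in G4. Day 4 groups were not tested against the gates. Of 11623 genes 903 were called higher in CD150L (7.77%) and 820 in CD150H (7.05%), and all 7 rule genes were called higher in each. Top2a was at 68.4, 112 and 87.8 FPKM in CD150L libraries and 96.9, 92.2 and 99.4 FPKM in CD150H libraries (log2 changes 3.17 and 3.31, SE 0.313 in both). Mki67 was at 16.9, 27 and 24.1 FPKM in CD150L and 26.2, 25.3 and 21.6 FPKM in CD150H (log2 changes 3.10 and 3.22, SE 0.307). Of the 110 mitosis genes 79 were called higher in CD150L and 81 in CD150H, with median log2 changes of 2.05 and 2.22 against -0.063 and -0.081 over all genes. Of the 96 that reached 1 FPKM in fresh old 67 and 68 were called. All 28 tested replication genes were called higher in each group too, and 27 of them had reached 1 FPKM in fresh old. Of the 12 genes of the macrophage list 11 were tested, 6 of them only through day 4 libraries, and of the 5 that reached 1 FPKM in fresh old 3 were called higher in each group. C1qb was at 1.93, 0.0652 and 1.42 FPKM in fresh old, 103, 40.9 and 11.8 FPKM in CD150L and 74.5, 33.5 and 107 FPKM in CD150H libraries, while Adgre1 and Csf1r were not called. The list, most of it Lyz2, summed to 601.4, 672 and 633.4 FPKM in fresh old, 966.4, 518.4 and 436.1 FPKM in CD150L and 793.5, 569.5 and 744.2 FPKM in CD150H. Other lists moved on day 4 too. Of 6 tested neutrophil genes 5 were called lower in CD150L and 4 in CD150H, and of 9 erythroid genes 3 were called higher in each. Of 20 HSC genes 9 were called lower in each, and of 90 aging genes 69 in CD150L and 61 in CD150H. Of all 11623 genes 1219 and 1140 were called lower. The part of macrophage RNA, or of these other lists, in the mitotic values of day 4 was not tested.

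Between CD150H and CD150L on day 4, where an adjusted p under 0.05 was enough, 2 of 11623 genes were called by limma (0.0172%), 0 of the 7 rule genes and 0 of the 110 mitosis genes, of which 5 had an unadjusted p under 0.05 (9.33% of all genes tested did). The 7 genes summed to 758.5, 944.4 and 997.2 FPKM in CD150L and 691.5, 925.9 and 932.2 FPKM in CD150H, and the libraries of the 2 groups overlapped. A p that misses the threshold does not show that the groups are alike. For Top2a the difference was 0.132 on the log2 scale with an SE of 0.313.

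Without thinning, most day 14 progeny met the same minimum of 10 UMIs. Of kept cells, which here needed 2000 genes, 1245 of 2406 (51.75%, 49.73 to 53.76) in the CD150L library and 1310 of 1933 (67.77%, 65.64 to 69.85) in the CD150H library were past it, with medians of 26270 and 36168.5 UMIs per such cell. Thinned, the shares were 41.28% and 46.42%. The 2 libraries shared 12 barcodes, 2 of them in these cells, and their cells are LSK progeny of a wider sort than the fresh HSCs. The 7 genes made 2396 CPM in CD150L and 2503 CPM in CD150H progeny past the minimum, against 2290 CPM in young and 2476 CPM in old fresh mitotic cells. The aging list summed to 914.8 CPM in CD150L and 1393 CPM in CD150H progeny, both between the 771.4 CPM of young and the 2333 CPM of old fresh mitotic cells, and the HSC list to 1018 and 1151 CPM. Sort, time and library differ between these cells and the fresh ones and cannot be told apart.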

How the data were processed

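Single-cell values were UMI counts per gene and cell, deposited by the authors from 10x 3′ v3.1 libraries run through Cell Ranger on mm10 (Seurat 4 is named too). Bulk values were FPKM deposited by the authors in 24 libraries made by SMART-Seq, with Trim Galore, HISAT2 2.0.0 and SAMtools 1.14 (HTSeq 0.12.4, Cufflinks and DESeq2 1.22.2 are also named in the submitters' notes). The bulk tables hold no read totals, and 21825 symbols remained after rows of 1 symbol were summed. The young and old single-cell libraries held 17149268 and 38686144 UMIs.

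UMIs were summed over cells of a class and age and given as CPM with exact Poisson intervals, ratios with exact binomial and shares with Clopper-Pearson intervals (95%). A count of 0 was set to 3 UMIs for ratios where 1 age lacked a gene. Scrublet (scanpy 1.11.5, expected rate 0.06) was run and doublets were left in. FPKM were tested with limma 3.58.1 (R 4.3.3, trend) on log2(FPKM + 1) where the mean reached 1 FPKM in any group of the fit, with fresh young against old, G1 to G4, and fresh old with both day 4 groups as separate fits. Scripts were tested on simulated data. Scripts ran in Python 3.11.15.

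The 7 genes, the 10 highest and 10 lowest ratios of old to young mitotic cells with at least 50 UMIs in the higher age, the most abundant members of each list and any called mitosis gene were named by rule. All other genes were named after their values were seen. The cells, the lists and the tests were chosen with earlier results of these data known. G1 to G4 come from the same 3 mice by their labels, and same-numbered libraries correlated between -0.454 and 0.508 in their deviations from group means. Alternatives were other UMI, CPM and FPKM minimums, thinning, scaling, pseudocount, replicate block and leaving out libraries.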

Additional observations from a re-analysis of the deposited data

Results flagged for a closer look

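A gene was singled out where its ratio between old and young went opposite ways in mitotic and other cells and was past 2-fold in at least 1 of them. With 1 library per age the difference between the classes was not tested. Pf4 was 2.00-fold in mitotic and 0.637-fold in other cells, with 1 cell holding 41.6% of its UMIs in old mitotic cells. Ung, a gene of uracil repair in DNA replication, was 1.15-fold in mitotic cells (115 and 136 UMIs) and 0.361-fold in other cells, and it is 1 of the 7 S-phase genes whose summed UMIs define the other cells, so that its level there was limited by the rule. Cdk1 was 1.20-fold in mitotic cells and 0.359-fold in other cells. In other cells Ung was at 17.35 CPM in young and 6.263 CPM in old and Cdk1 at 13.55 and 4.871 CPM, so both were compared there only through young cells. Other cells were chosen to hold under 10 UMIs of the 7 mitotic rule genes, and the part of that choice in the Cdk1 values was not tested.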

How the results depend on the processing

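Counted over every alternative, the main counts and differences stayed within 1.5 times or the counting interval of the reported value 133 times and moved past it 37 times. Of all values 0 reversed, but a count of genes could not reverse, so nothing is read from this. The difference in mitotic share was 6.157 points at a minimum of 5 UMIs, where 104 young and 90 old cells qualified, and between 2.39 and 3.857 points under the other alternatives. Genes past 2-fold between old and young mitotic cells were 35 higher and 23 lower at 30 CPM, 439 and 507 in thinned cells, whose sums are shallower, and 248 higher where every cell counted alike. In other cells 30 CPM gave 55 higher and 34 lower. The aging list's median lay between 1.434 and 1.83. The alternatives with cells over 20000 UMIs, or without the cells richest in megakaryocyte genes, were chosen after seeing the data.

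In bulk, with no FPKM filter, 11 genes and 0 mitosis genes were called lower in old, and leaving out 1 library gave 113 to 218 genes, 20 to 42 mitosis genes and 1 to 7 rule genes. With a pseudocount of 0.1, 28 mitosis genes and 3 rule genes were called. For the CD150 slope, a pseudocount of 0.1 gave 8 genes lower, no filter 1, and leaving out 1 library 4 to 14 genes and 0 to 4 mitosis genes. For CD150H against CD150L on day 4, a pseudocount of 0.1 gave 0 genes, no filter 6, median-ratio scaling 8 and leaving out 1 library 0 to 36, with 0 mitosis genes throughout. Against fresh old, leaving out 1 library gave 817 to 978 genes and 74 to 80 mitosis genes in CD150L, and 751 to 834 and 77 to 83 in CD150H. The causes were not tested.

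With the replicate block, 202 genes and 40 mitosis genes were called lower in old against young, and 15 genes and 0 mitosis genes over G1 to G4. It moved no other count by over 1.5 times. The replicate numbers of young and old libraries correlated at 0.111, 0.042 and 0.031, each library best with its own number, which does not show that they pair. Read depth of the bulk libraries is unknown, and the 144 mitotic cells limit genes under about 10 CPM.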
